A study of Mus musculus with 6 samples.

Results

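The genes described here are 9 of the core genes of the mammalian circadian clock, taken by symbol from a table of 19288 genes: the activators Arntl and Clock, the repressors Per1, Per2, Cry1 and Cry2, the nuclear receptor Nr1d1, and the output factors Dbp and Tef. The rule named 10 genes, and Per3 is not analysed here. All 9 passed the filter on low counts. The 6 RNA-seq libraries came from tumours grown under the skin from LLC1 cells, a mouse line of Lewis lung carcinoma, and every host carried a beta-hCG transgene, being an outcross of a C57BL/6 female with a transgenic FVB male. Human chorionic gonadotropin is a pregnancy hormone, and beta-hCG is the subunit that sets it apart. There were 3 groups of 2 libraries: ovariectomized transgenic hosts given progesterone (progesterone tumours), ovariectomized transgenic hosts given vehicle (vehicle tumours), and transgenic hosts for which the labels name neither ovariectomy nor supplementation (transgenic tumours). Progesterone or vehicle was given over 28 days, and the tumours were collected on day 30 from implantation. The sources used here give neither the promoter of the transgene, nor the ages of the hosts, nor the light schedule, nor the hour at which each tumour was taken.

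In the clock of mouse cells, ARNTL and CLOCK bind E-box sequences as a pair and switch on the Per and Cry genes, whose proteins then hold that pair back. A second loop runs through NR1D1, also called REV-ERB alpha, which is switched on by ARNTL and CLOCK and represses Arntl, and through the PAR bZIP factors DBP and TEF, which carry the rhythm to D-box genes. In mouse peripheral tissues Arntl peaks in another part of the day than Nr1d1 and Dbp, whose own peaks adjoin, so how these genes differ between 2 samples depends on both hours of sampling. Per1 and Per2 also respond to signals other than the clock, among them glucocorticoids and cAMP.

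None of the 9 clock genes passed the test in any of the 3 comparisons between groups, and Nr1d1 and Dbp, both set against Arntl, did not rank the libraries alike. By edgeR's quasi-likelihood test on all 6 libraries, at a Benjamini-Hochberg adjusted p under 0.05, 0 of 9 clock genes were called in each comparison, against 0.0% of the 13632 genes tested. At an unadjusted p under 0.05, 1 clock gene remained between progesterone and vehicle tumours, against 5.29% of all genes, and 0 did in the other 2 comparisons, against 5.27% of genes for progesterone against transgenic tumours and 5.57% for vehicle against transgenic tumours. DESeq2 and limma-voom also called 0 of the 9, while DESeq2 called 0.534%, 0.344% and 0.542% of the genes it tested in those comparisons in that order and limma-voom 0.0%. A test for any difference among the 3 groups gave the 9 genes adjusted p-values of 0.892 to 1.0 by edgeR, with 0 of them at an unadjusted p under 0.05, against 5.63% of all genes. With 2 libraries a group an exact permutation test, two-sided, cannot go below 0.333, so for any single value taken from 2 groups no such test could pass. The labels do not say that the libraries of a group came from separate animals, so p-values measure only the spread between these libraries.

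Total counts ran from 19526775 to 30083925 a library. Transgenic library 2 stood apart from the others on the first principal component of all tested genes, at 54.5. Progesterone library 1 was next on it, at 23.2, and the rest lay between -32.7 and 3.39. Progesterone library 2 stood apart on the second component, at 62.9 with the rest between -22.3 and 0.677. Of 9 genes fixed as markers of the lung epithelial lineage of the line, 7 were in the table. Krt8 ran from 135 to 393 CPM (counts scaled to library size by TMM) and Krt18 from 125 to 370.1 CPM. Napsa, at 1.64 to 4.48 CPM, and Cdh1, at 1.7 to 3.44 CPM, were low but passed the filter. Epcam stayed at or under 0.222 CPM, Sftpc had 0 counts in 4 of 6 libraries and Scgb1a1 in 5 of 6. The libraries hold RNA of tumour cells and of host cells, and in such bulk samples fewer cells of a type and less RNA per cell cannot be told apart.

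Promoter sequences show which of these genes carry, close to their start sites, the elements through which the loops run. RefSeq promoter sequences on GRCm38.p6, from 250 bases before to 50 bases after each start site, matched 8 of the 9 genes with 13 promoters. Of them the 5 below belong to Per1, the most variable abundant gene here, to Arntl and Nr1d1, which act on each other, and to Cry1. Capitals mark E-boxes (CACGTG), variant E-boxes (CACGTT), RORE cores (AGGTCA), D-box cores (TTATGTA) and the core of the cAMP response element (TGACGTC), on either strand. The RORE core is only a part of the element that NR1D1 and ROR proteins bind, and the bases beside it were not scored.
Arntl, chr7:113207261-113207560, plus strand: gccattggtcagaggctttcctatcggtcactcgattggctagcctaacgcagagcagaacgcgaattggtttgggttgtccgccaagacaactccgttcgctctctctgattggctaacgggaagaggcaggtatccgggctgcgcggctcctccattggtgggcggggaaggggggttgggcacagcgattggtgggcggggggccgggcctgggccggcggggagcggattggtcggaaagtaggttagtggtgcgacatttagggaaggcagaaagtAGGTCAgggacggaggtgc
Nr1d1, chr11:98775328-98775627, minus strand: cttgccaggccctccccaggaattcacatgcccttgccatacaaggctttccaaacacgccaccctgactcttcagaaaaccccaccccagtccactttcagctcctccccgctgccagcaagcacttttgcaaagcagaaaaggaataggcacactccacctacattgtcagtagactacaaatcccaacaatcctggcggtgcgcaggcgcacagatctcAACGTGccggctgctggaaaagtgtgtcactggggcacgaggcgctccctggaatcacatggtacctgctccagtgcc
Per1, chr11:69098699-69098998, plus strand: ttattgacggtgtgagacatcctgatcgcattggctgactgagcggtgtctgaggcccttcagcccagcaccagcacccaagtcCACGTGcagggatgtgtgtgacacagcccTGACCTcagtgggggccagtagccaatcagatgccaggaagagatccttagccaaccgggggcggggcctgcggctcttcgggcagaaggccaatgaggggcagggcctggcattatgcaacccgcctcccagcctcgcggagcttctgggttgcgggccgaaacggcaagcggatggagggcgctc
Per1, second promoter, chr11:69099902-69100201, plus strand: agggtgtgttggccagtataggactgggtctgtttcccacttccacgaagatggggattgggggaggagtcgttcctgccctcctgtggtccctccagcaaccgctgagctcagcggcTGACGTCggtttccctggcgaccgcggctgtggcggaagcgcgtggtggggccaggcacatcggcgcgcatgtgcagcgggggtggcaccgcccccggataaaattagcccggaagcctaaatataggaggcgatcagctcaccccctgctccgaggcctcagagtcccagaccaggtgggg
Cry1, chr10:85185005-85185304, minus strand: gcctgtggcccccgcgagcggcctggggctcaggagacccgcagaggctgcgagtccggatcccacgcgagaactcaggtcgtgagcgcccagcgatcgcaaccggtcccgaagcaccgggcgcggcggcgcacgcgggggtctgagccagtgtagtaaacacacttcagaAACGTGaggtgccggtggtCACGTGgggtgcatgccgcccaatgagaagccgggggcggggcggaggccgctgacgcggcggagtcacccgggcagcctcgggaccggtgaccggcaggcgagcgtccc

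The Arntl promoter shown held a RORE core that begins 31 bases after the start site. The Nr1d1 promoter held a variant E-box 28 bases before its start site, and the Cry1 promoter an E-box 60 bases and a variant E-box 79 bases before its own. The upstream Per1 promoter held an E-box 166 bases and a RORE core 137 bases before the start site, and the second Per1 promoter held the cAMP response element core 132 bases before its start. An E-box was present in 4 of the 13 promoters (of Cry1, Per1 and Tef), against 7.15% of all 32851 promoters of that length, and a variant E-box in 3 (of Cry1, Cry2 and Nr1d1), against 4.68%. A RORE core was found in 3 (of Arntl, Clock and Per1), against 16.3%, the cAMP response element core in 1 (of Per1), against 3.21%, and a D-box core in 0, against 2.63%. The shorter cAMP core TGACG, which lies inside TGACGTC, was found in 4 (of Cry1, Cry2 and Per1), against 20.8%. The hypoxia response core ACGTG, which lies inside both E-box forms, was found in 7, against 19.6%, and GCGTG in 8, against 32.4%. Promoters of 1 gene can share bases. A match describes letters in the window and not a bound site. The Dbp promoter held none of the 5 marked elements in this window.

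Arntl (ENSMUSG00000055116, chromosome 7, 113207465 to 113314126), which encodes BMAL1, the partner of CLOCK, was the clock gene with the smallest p-value. It had 28.2 and 30.9 CPM in progesterone tumours, against 49.3 and 36.8 CPM in vehicle tumours, and 36.3 and 30.2 CPM in transgenic tumours. Both progesterone libraries lay below both vehicle libraries, and the transgenic libraries fell below the vehicle pair and overlapped the progesterone range only in library 2. The gap between vehicle library 2 and transgenic library 1 was within counting error, with 95% Wilson intervals of 34.2 to 39.7 and 34.1 to 38.7 CPM. The log2 fold change of progesterone against vehicle tumours was -0.54 ± 0.22 (SE), with a 95% interval of -1.06 to -0.03, an unadjusted p of 0.0413 and an adjusted p of 0.939 by edgeR. For vehicle against transgenic tumours it was 0.37 ± 0.22 (interval -0.14 to 0.89, adjusted p = 0.899 by edgeR), and for progesterone against transgenic tumours -0.17 ± 0.22. Leaving out each library in turn moved the first of these between -0.74 and -0.32, and the lowest adjusted p reached was 0.606 by edgeR.

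Clock (ENSMUSG00000029238, chromosome 5, 76209868 to 76304792), a histone acetyltransferase and the partner of ARNTL, had 51.1 and 64.8 CPM in progesterone, 62.3 and 61.2 CPM in vehicle, and 61.5 and 78.3 CPM in transgenic tumours. Its lowest value was in progesterone library 1 and its highest in transgenic library 2, and all 3 groups overlapped. The log2 fold changes were -0.09 ± 0.19 for progesterone against vehicle, -0.27 ± 0.19 for progesterone against transgenic and -0.18 ± 0.19 for vehicle against transgenic tumours. The closely related Npas2, which can stand in for CLOCK, did not pass the filter on low counts, at no more than 0.414 CPM in any library.

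Per1 (ENSMUSG00000020893, chromosome 11, 69095217 to 69109960), a repressor of ARNTL and CLOCK, differed more between libraries of 1 group than between groups. It had 153 and 75.3 CPM in progesterone, 75.6 and 67.2 CPM in vehicle, and 52.7 and 128 CPM in transgenic tumours. Progesterone library 1 and transgenic library 2 were high, and the other 4 libraries lay between 52.7 and 75.6 CPM. The libraries of a group differed 2.03-fold in progesterone and 2.43-fold in transgenic tumours, but 1.12-fold in vehicle tumours. These differences were larger than counting error, since the 95% Wilson intervals were 148 to 158 and 71.9 to 78.8 CPM in progesterone libraries 1 and 2, while that of transgenic library 1 ended at 55.5 CPM and that of library 2 began at 123 CPM. Such intervals cover counting error only. The log2 fold change of progesterone against vehicle tumours was 0.68 ± 0.45 (interval -0.39 to 1.74, adjusted p = 0.999 by edgeR), and without progesterone library 1 it was 0.07.

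Per2 (ENSMUSG00000055866, chromosome 1, 91415982 to 91459324), the other period repressor measured, had 3.28 and 10.7 CPM in progesterone, 10.7 and 6.41 CPM in vehicle, and 8.85 and 5.73 CPM in transgenic tumours. Its lowest libraries, progesterone library 1 and transgenic library 2, were the 2 in which Per1 was highest, and all groups overlapped. The gap between transgenic library 2 and vehicle library 2 was within counting error, with Wilson intervals of 4.85 to 6.78 and 5.37 to 7.66 CPM. Within the progesterone group the libraries differed 3.26-fold, from 85 and 259 counts, with Wilson intervals of 2.66 to 4.06 and 9.49 to 12.1 CPM. The log2 ratio of Per1 to Per2 was 5.51 and 2.80 in progesterone, 2.81 and 3.37 in vehicle, and 2.56 and 4.46 in transgenic libraries, a range of 2.94. The log2 fold changes of Per2 between groups were -0.29 ± 0.59 for progesterone against vehicle, -0.06 ± 0.59 for progesterone against transgenic and 0.23 ± 0.59 for vehicle against transgenic tumours, the widest errors among the 9 genes. With such errors the interval for progesterone against vehicle tumours ran from -1.68 to 1.09.

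**Figure D1:**
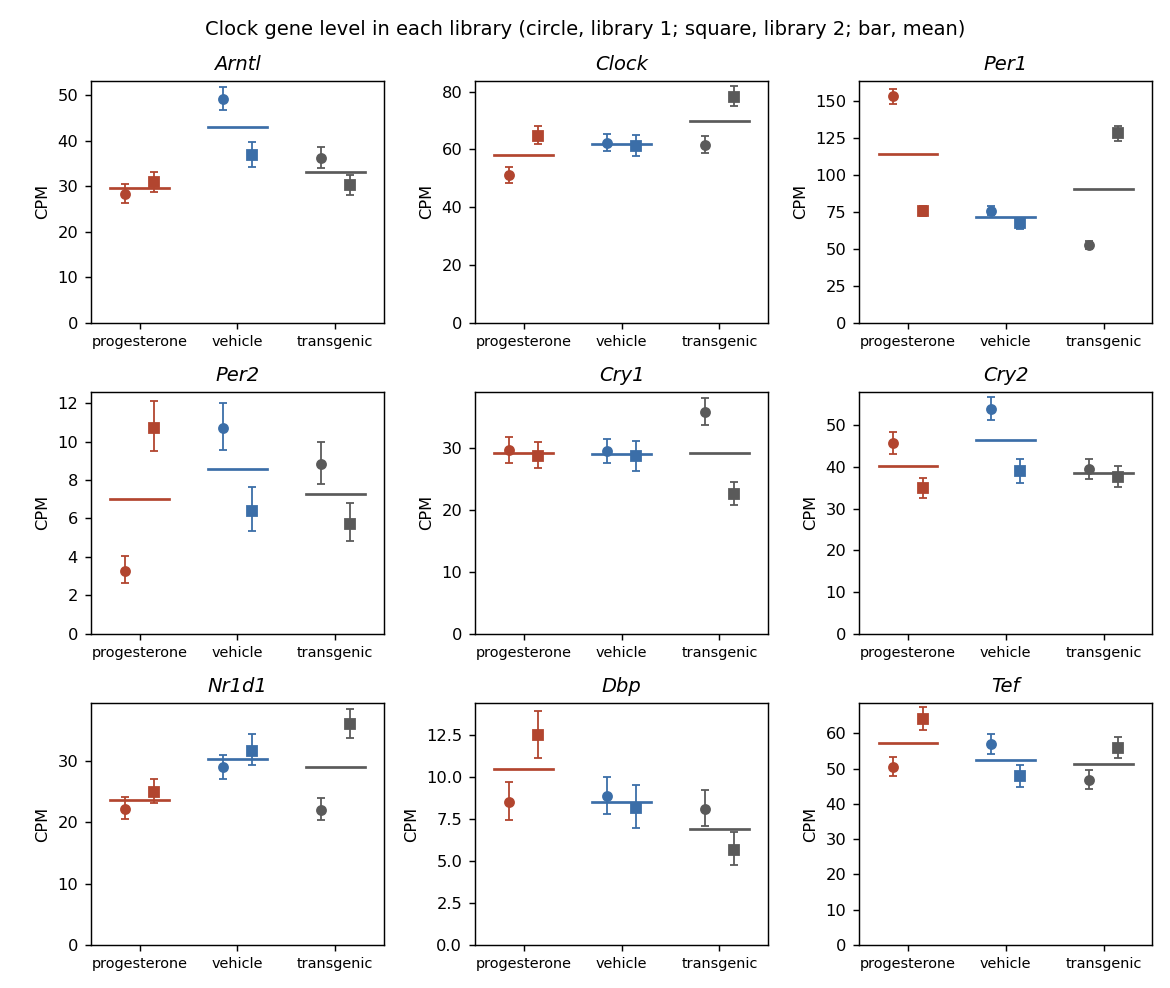
Level of each of the 9 clock genes in CPM (vertical axis, from 0) by group, with circles for library 1, squares for library 2, horizontal bars for the mean of 2 libraries and error bars for the 95% Wilson interval of counting. Per1 is high and Per2 low in progesterone library 1 (153 and 3.28 CPM) and in transgenic library 2 (128 and 5.73 CPM), while Arntl is lower in both progesterone libraries than in both vehicle libraries. For Per2, transgenic library 2 is within counting error of vehicle library 2 (6.41 CPM).

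The cryptochromes, which bind the ARNTL and CLOCK pair as repressors, had small differences between groups. Cry1 (ENSMUSG00000020038, chromosome 10, 85131700 to 85185064) had 29.6 and 28.7 CPM in progesterone, 29.4 and 28.6 CPM in vehicle, and 35.8 and 22.5 CPM in transgenic tumours. Its 3 group means lay within 29.0 to 29.2 CPM, and the 2 transgenic libraries lay on either side of all the others. The log2 fold change of progesterone against vehicle tumours was 0.01 ± 0.25, with an interval of -0.59 to 0.61. Cry2 (ENSMUSG00000068742, chromosome 2, 92403646 to 92434043) had 45.6 and 34.9 CPM in progesterone, 53.9 and 39.0 CPM in vehicle, and 39.4 and 37.6 CPM in transgenic tumours. It was highest in vehicle library 1 and lowest in progesterone library 2, with groups that overlapped in each comparison. Its log2 fold changes were -0.21 ± 0.23, 0.07 ± 0.23 and 0.27 ± 0.23 for progesterone against vehicle, progesterone against transgenic and vehicle against transgenic tumours.

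Nr1d1 (ENSMUSG00000020889, chromosome 11, 98767932 to 98775333), the repressor of Arntl, had 22.2 and 25.0 CPM in progesterone, 29.0 and 31.7 CPM in vehicle, and 22.0 and 36.0 CPM in transgenic tumours. Both progesterone libraries lay below both vehicle libraries, as for Arntl, and the transgenic libraries held both the lowest and the highest value. The lowest, in transgenic library 1, was within counting error of progesterone library 1, with Wilson intervals of 20.3 to 23.9 and 20.5 to 24.1 CPM. The log2 fold change of progesterone against vehicle tumours was -0.36 ± 0.27 (interval -1.0 to 0.27, adjusted p = 0.999 by edgeR). Nr1d1 and Arntl had the same sign in that comparison. The exons of Nr1d1 share 263 bases, 8.55% of their length, with Thra on the opposite strand, which had a mean of 121 CPM against 27.7 CPM for Nr1d1. The library kit keeps the strand, but the sources used here do not say whether counting used it.

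Dbp (ENSMUSG00000059824, chromosome 7, 45705088 to 45710203), a PAR bZIP activator and among the strongest cycling transcripts of mouse liver, had 8.46 and 12.5 CPM in progesterone, 8.82 and 8.11 CPM in vehicle, and 8.08 and 5.65 CPM in transgenic tumours. Both progesterone libraries and both vehicle libraries lay above both transgenic libraries, but progesterone library 1, the vehicle libraries and transgenic library 1 stood within 8.08 to 8.82 CPM. The log2 fold change was 0.61 ± 0.35 for progesterone against transgenic tumours (interval -0.21 to 1.43, adjusted p = 0.919 by edgeR), 0.30 ± 0.35 for progesterone against vehicle and 0.30 ± 0.35 for vehicle against transgenic tumours. Of its exon length 18.0%, or 539 bases, is shared with Sphk2 on the opposite strand, which had a mean of 28.1 CPM against 8.59 CPM for Dbp. The limit on strand given for Nr1d1 holds here too. Tef (ENSMUSG00000022389, chromosome 15, 81802421 to 81826863), a related PAR bZIP activator, had 50.4 and 64.1 CPM in progesterone, 57.0 and 47.9 CPM in vehicle, and 46.9 and 55.9 CPM in transgenic tumours. It was the steadiest of the 9 genes, with a 1.37-fold range over the libraries and groups that overlapped in each comparison. Its log2 fold changes lay between 0.03 and 0.16. The third PAR bZIP gene, Hlf, did not pass the filter, at no more than 0.482 CPM.

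**Figure D2:**
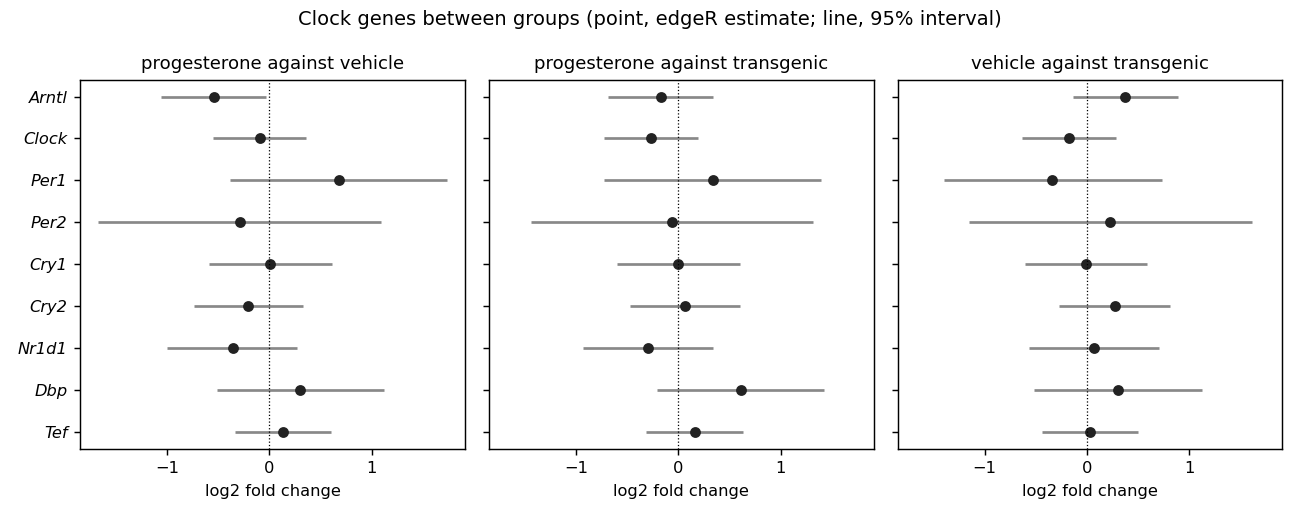
Log2 fold change of each clock gene in the 3 comparisons (horizontal axis), with points for edgeR's estimate and lines for its 95% interval. All intervals span 0 except that of Arntl for progesterone against vehicle tumours, -1.06 to -0.03 before adjustment over all genes.

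Per kilobase of exon, Per1 was the most abundant clock gene, at a mean of 16.3 CPM per kilobase over the 6 libraries. Nr1d1 and Cry1 followed at 8.99 and 8.71, Tef and Cry2 at 6.83 and 6.60, Arntl and Clock at 4.69 and 4.60, Dbp at 2.87 and Per2 at 1.3. Each gene overlapped over the libraries with its neighbour in this order except Dbp with Per2. For example, Nr1d1 ran from 7.16 to 11.7 and Cry1 from 6.74 to 10.7 CPM per kilobase, and Arntl from 3.75 to 6.55 and Clock from 3.72 to 5.71. Dbp, at 1.89 to 4.16 CPM per kilobase, stayed above Per2, at 0.561 to 1.83.

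Groups were also compared by whether their libraries overlapped. Between progesterone and vehicle tumours, 2 of 9 clock genes (Arntl and Nr1d1) were lower in both progesterone libraries, against 17.8% of all genes tested, and 0 were higher in both, against 18.5%. Between progesterone and transgenic tumours, 1 (Dbp) was higher in both progesterone libraries, against 14.5%, and 0 were lower, against 14.5%. Between vehicle and transgenic tumours, 2 (Arntl and Dbp) were higher in both vehicle libraries, against 17.9%, and 0 were lower, against 17.7%. For both genes the gap between vehicle library 2 and transgenic library 1 was within counting error, at 36.8 against 36.3 CPM for Arntl and 8.11 against 8.08 CPM for Dbp. These counts were near the shares over all genes. The median log2 fold change over the clock genes was -0.09, 0.00 and 0.07 for progesterone against vehicle, progesterone against transgenic and vehicle against transgenic tumours, beside 0.01, 0.01 and -0.01 over all genes. The comparisons share groups, so their values are not independent of each other. Between vehicle and transgenic tumours, ovariectomy and the vehicle supplement cannot be told apart.

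Ratios to Arntl compare genes that peak in different parts of the day, and a ratio within a library does not depend on library scaling. With no hour of sampling, and peaks that are offset among Nr1d1, Dbp and Tef, no phase was assigned to a library. The absolute value of a ratio depends on gene length, so only differences between libraries are read. The unknown strand setting of the counting also limits the ratios of Nr1d1 and Dbp. The log2 ratio of Dbp to Arntl was -1.73 and -1.30 in progesterone, -2.47 and -2.17 in vehicle, and -2.16 and -2.40 in transgenic libraries. Both progesterone libraries thus lay above the other 4, as did the ratios to Arntl of 21.1% of all genes. The mean ratio was 0.81 higher on the log2 scale in progesterone than in vehicle tumours, and 20.0% of all genes had a larger difference, Arntl itself being lower there. It was 0.76 higher in progesterone than in transgenic tumours, and 8.17% of all genes had a larger difference. The log2 ratio of Tef to Arntl was 0.83 and 1.05 in progesterone, 0.21 and 0.38 in vehicle, and 0.37 and 0.89 in transgenic libraries, so that progesterone tumours stood above vehicle tumours but transgenic library 2 stood within their range. For 6 of the 8 other clock genes the ratio to Arntl was higher in both progesterone than in both vehicle libraries, against 64.4% of all genes. Between progesterone and transgenic tumours this held for 1 (Dbp), against 25.1%, and between vehicle and transgenic tumours for 0, against 2.49%.

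The ratio of Nr1d1 ranked the libraries differently from that of Dbp. Its log2 ratio to Arntl was -0.35 and -0.30 in progesterone, -0.76 and -0.21 in vehicle, and -0.72 and 0.25 in transgenic libraries. The highest library for this ratio, transgenic library 2, was the second lowest for Dbp to Arntl. The log2 ratio of Dbp to Nr1d1, genes that are high in adjoining parts of the day in mouse tissues, was -1.38 and -1.0 in progesterone, -1.71 and -1.96 in vehicle, and -1.44 and -2.65 in transgenic libraries, a range of 1.65. That range was wider than the 1.17 of Dbp to Arntl and the 1.02 of Nr1d1 to Arntl.

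**Figure D3:**
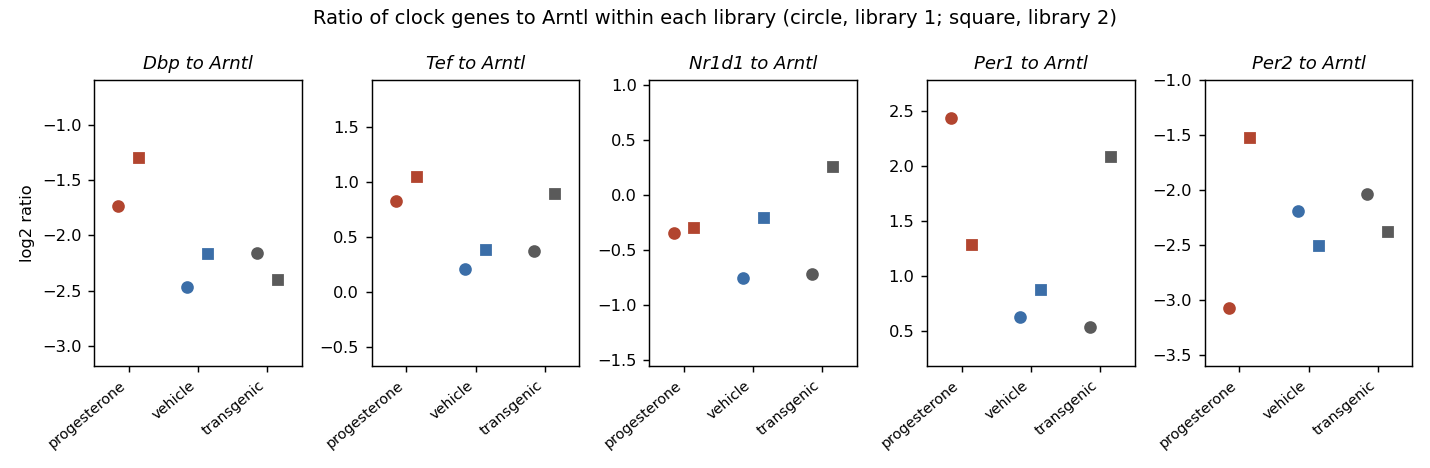
Log2 ratio of 5 clock genes to Arntl in each library (vertical axes, each spanning the same distance), by group, with circles for library 1 and squares for library 2. The ratio of Dbp is higher in both progesterone libraries (-1.73 and -1.30) than in the others, that of Nr1d1 is highest in transgenic library 2 (0.25), and that of Per1 is highest in progesterone library 1 (2.43).

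Averaged over the 3 groups, the libraries of a group differed about as much for the clock genes as for all genes, with medians of 0.31 and 0.30 on the log2 scale. The groups did not go the same way. At the median the clock genes differed more than all genes in progesterone and transgenic tumours and less in vehicle tumours. The median absolute log2 difference between the libraries of a group was 0.35 in progesterone, 0.17 in vehicle and 0.51 in transgenic tumours for the 9 genes, beside 0.29, 0.21 and 0.33 for all genes. Per2 was at the 94.7th percentile of all genes for this difference in progesterone tumours, Per1 at the 88.4th there and at the 90.9th in transgenic tumours, and Cry1 at the 7.8th in progesterone and the 11.3th in vehicle tumours. In transgenic tumours library 2 was the higher one for Clock, Per1, Nr1d1 and Tef and library 1 for Arntl, Per2, Cry1, Cry2 and Dbp. Arntl was thus low where Nr1d1, Per1 and Tef were high, but Dbp and Per2 were low with it. In vehicle tumours library 1 was higher for 8 of the 9 genes, all but Nr1d1, by 1.02-fold to 1.66-fold.

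Over the 6 libraries, pairs of clock genes from the activator and the repressor or output limb had correlations of both signs. Of the 10 pairs of Arntl or Clock with Per1, Per2, Nr1d1, Dbp or Tef, 4 had a negative Pearson r of log2 CPM and 6 a positive one, from -0.59 (Arntl with Per1) to 0.74 (Clock with Nr1d1). Of the 10 pairs among Per1, Per2, Nr1d1, Dbp and Tef, 7 were positive and 3 negative, with the lowest r of -0.78 between Per1 and Per2 and the highest of 0.45 between Per2 and Dbp. Arntl and Clock had an r of 0.02. The most negative of all 36 pairs was Cry1 with Nr1d1, at -0.81. These are descriptions over 6 libraries of 3 groups that share 1 scaling, with no test. Since the hours of sampling are unknown, no sign could be predicted for a pair, and no conclusion is drawn from the signs.

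**Figure D4:**
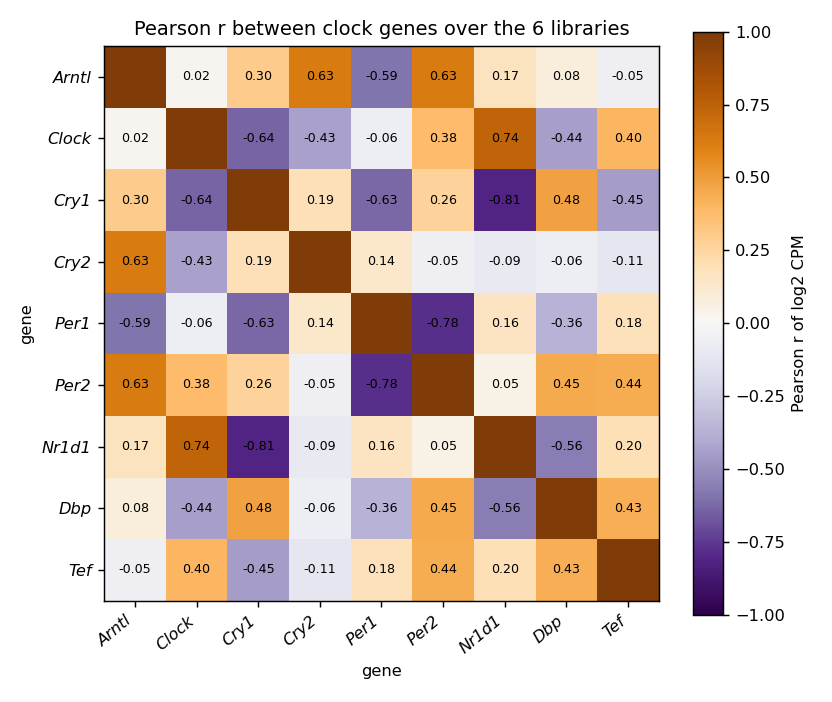
Pearson r of log2 CPM over the 6 libraries for each pair of the 9 clock genes (both axes), from -1 in purple to 1 in orange. Values run from -0.81 (Cry1 with Nr1d1) to 0.74 (Clock with Nr1d1), and the activators Arntl and Clock have an r of 0.02.

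By the same measure the genes most like Arntl, among 10425 with at least 5 CPM on average, were Rai14, Tmem41b, Dock4, Fgfr1op and Cald1, with r from 0.985 to 0.992. Those most like Dbp were Sesn1, Uap1, Zswim7, Wdsub1 and Tnfrsf11a, with r from 0.965 to 0.980. With 6 libraries, 1.24% of these genes had an r above 0.9 with Arntl and 0.624% with Dbp.

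Of 22 other clock genes on a list, 19 passed the filter, and edgeR called 0 of them in any comparison. At an unadjusted p under 0.05 there were 3 between progesterone and vehicle tumours, against 5.29% of all genes. There was 1 between progesterone and transgenic tumours, against 5.27%, and there were 2 between vehicle and transgenic tumours, against 5.57%. Bhlhe40, also called DEC1, which represses E-box genes and is itself induced by hypoxia, had 79.3 and 87.7 CPM in progesterone, 223 and 152 CPM in vehicle, and 121 and 74.4 CPM in transgenic tumours. Vehicle libraries were the highest for it, above both other groups. Its log2 fold change was -1.17 ± 0.28 for progesterone against vehicle tumours (adjusted p = 0.932 by edgeR) and 0.93 ± 0.28 for vehicle against transgenic tumours (adjusted p = 0.810 by edgeR). DESeq2 called the change between progesterone and vehicle tumours, at an adjusted p of 0.0341. Bhlhe40 was the only 1 of the 19 other clock genes that it called in that comparison, against 0.534% of the genes it tested.

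Csnk1e, a kinase that phosphorylates PER proteins, had 80.2 and 92.8 CPM in progesterone and 145 and 118 CPM in vehicle tumours. Its log2 fold change was -0.61 ± 0.18 (SE). Among genes of PER turnover, the F-box gene Btrc had 0.48 ± 0.17 for progesterone against transgenic tumours and Fbxw11 -0.32 ± 0.18 for progesterone against vehicle tumours. Nfil3, the repressor that competes with DBP for D-boxes, had 35.5 and 22.1 CPM in progesterone against 44.3 and 48.6 CPM in vehicle tumours, with a log2 difference of -0.69 ± 0.31. Timeless, which also acts in DNA replication, had -0.54 ± 0.19 for vehicle against transgenic tumours, the cell cycle kinase Wee1 -0.38 ± 0.15 and the deadenylase Noct -0.71 ± 0.42 for progesterone against vehicle tumours. None of these passed the test. Nr1d2, the paralog of Nr1d1, chosen after its values were seen, had 50.1 and 76.9 CPM in progesterone, 66.7 and 63.0 CPM in vehicle, and 62.1 and 92.4 CPM in transgenic tumours, highest in transgenic library 2 as Nr1d1 was. Ciart and Usp2, further E-box controlled genes in mouse and likewise chosen after their values were seen, were lowest or near lowest in that library, at 3.67 and 3.29 CPM, and Usp2 reached 23.5 CPM in vehicle library 2 against 3.57 CPM in vehicle library 1.

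**Figure D5:**
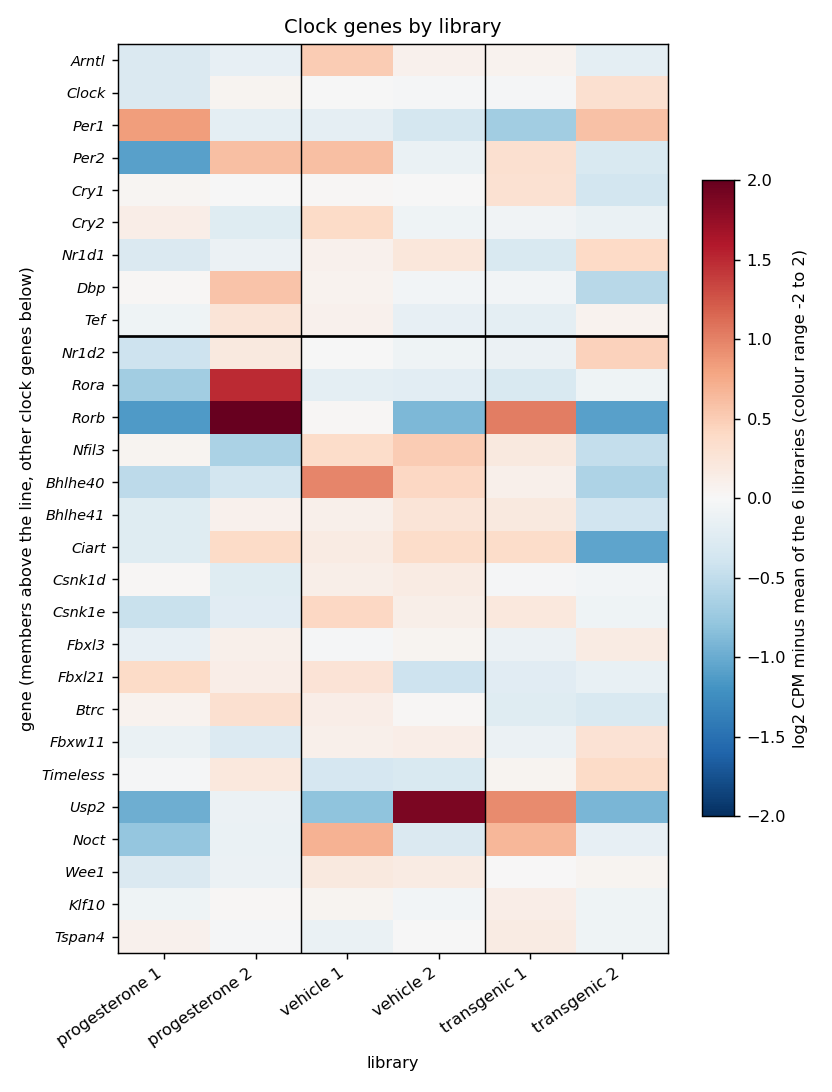
Log2 CPM of each gene minus its mean over the 6 libraries (colour, from -2 in blue to 2 in red) for the 9 clock genes above the line and the 19 other clock genes that passed the filter below it, by library. Bhlhe40 is above its mean in both vehicle libraries, by 0.97 and 0.42, and no column shows the activators and the output genes uniformly in opposite colours. With unknown hours of sampling, no such pattern could be predicted.

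Other gene groups moved with some of these values, and their part in them was not tested. The summed level of 10 hypoxia response genes was 1688 and 1537 CPM in progesterone, 3289 and 2725 CPM in vehicle, and 1991 and 1249 CPM in transgenic libraries. Vehicle library 1, vehicle library 2 and transgenic library 1 were in this order the highest 3 libraries for these genes, for Arntl and for Bhlhe40. For Arntl the order of vehicle library 2 and transgenic library 1 was within counting error, at 36.8 and 36.3 CPM. The share of all genes with the same order was not computed. The hypoxia gene Egln3 had a log2 fold change of -1.23 for progesterone against vehicle tumours and Slc2a1 1.38 for vehicle against transgenic tumours. Neither was called by edgeR, which called 0 of all genes. DESeq2 called 2 of the 10 hypoxia genes in each of these comparisons, against 0.534% and 0.542% of the genes it tested. Between progesterone and transgenic tumours it called 0 of them, against 0.344%. Cell cycle genes, 8 in the list, summed to 1119 and 1348 CPM in progesterone, 783 and 935 CPM in vehicle, and 1335 and 1848 CPM in transgenic libraries. Of these 8 genes DESeq2 called 4 for vehicle against transgenic tumours, against 0.542% of the genes it tested. It called 1 for progesterone against transgenic tumours, against 0.344%, and 0 for progesterone against vehicle tumours, against 0.534%.

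Where Per1 was high, some markers of the tumour line and of host cells also differed. Krt8, at 362 and 393 CPM, and Napsa, at 4.48 and 4.3 CPM, were highest in progesterone library 1 and transgenic library 2. Krt18 was highest in transgenic library 2, at 370.1 CPM, but next in progesterone library 2, at 293 CPM. Cdh1 was highest in transgenic library 1, at 3.44 CPM. The part of tumour cell RNA in the values of Per1 was not tested. The 7 fibroblast markers summed to 4961 and 10409 CPM in progesterone, 6736 and 11456 in vehicle, and 7599.9 and 2001 in transgenic libraries. The 2 libraries with the most Per1 had the lowest fibroblast sums. Most of the sum was Col3a1, at a mean of 5345 CPM, and the markers did not move alike. In transgenic library 2 Col3a1, Dcn, Lum and Pdgfra were at their lowest, but Pdgfrb was at its highest, 89.4 CPM, and Col1a2 was second highest at 107 CPM. In progesterone library 1 Pdgfrb was at its lowest, 16.3 CPM, but Dcn, at 738 CPM, and Col1a2, at 32.2 CPM, were each above 3 of the other libraries. Col1a1 was lowest in vehicle library 1, at 73.1 CPM. The part of fibroblast RNA in the values of Per1 and Per2 was not tested. The 6 macrophage markers summed to 2421 and 2094 CPM in progesterone, 1229 and 1521 CPM in vehicle, and 994 and 2192 CPM in transgenic libraries. Most of this sum was Lyz2, at a mean of 1174 CPM. Lyz2 and Cd68 were highest in progesterone library 1 and C1qa in transgenic library 2. Csf1r, Adgre1 and Mrc1 were highest in progesterone library 2, at 139.8, 61.5 and 434 CPM, where Per1 was not high. No marker of these lists was at 0 in all libraries. Skeletal muscle and adipocyte markers, 4 each, summed to no more than 15.5 and 30.4 CPM in any library. The 4 T cell markers reached 6.24 CPM in transgenic library 2, and the 5 endothelial markers ran from 94.4 CPM in progesterone library 1 to 255 CPM in transgenic library 2. The 4 neutrophil markers ran from 48.2 CPM in transgenic library 2 to 212 CPM in transgenic library 1, and the 3 keratinocyte markers reached 1.58 CPM.

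Genes of signals to which Per1 also responds varied in more than 1 pattern. The 9 immediate early genes summed to 628 and 475 CPM in progesterone, 872 and 840.4 CPM in vehicle, and 689.8 and 621 CPM in transgenic libraries, with the vehicle libraries highest. Most of the sum was Jun and Junb, at means of 286 and 176 CPM. All 9 had a negative log2 fold change for progesterone against vehicle tumours, -1.6 for Egr1 and -1.56 for Atf3, and edgeR called 0. DESeq2 called 2 of the 9 in that comparison, against 0.534% of the genes it tested. It called 1 for vehicle against transgenic tumours, against 0.542%, and 0 for progesterone against transgenic tumours, against 0.344%. The 5 genes of the list responsive to glucocorticoids and progesterone summed to 339.7 and 318 CPM in progesterone, 406 and 313 CPM in vehicle, and 392 and 471 CPM in transgenic libraries. Among them Tsc22d3, also called GILZ, had 61.6 and 43.3 CPM in progesterone, 36.6 and 37.6 CPM in vehicle, and 31.9 and 56.7 CPM in transgenic libraries. It was highest in the same 2 libraries as Per1, but the other genes of the list were not. Fkbp5 was highest in transgenic library 2, at 255 CPM, but had 172 CPM in progesterone library 1 against 180.4 CPM in vehicle library 1. Sgk1 was highest in transgenic library 1, at 123 CPM, with 65.5 CPM in progesterone library 1. Zbtb16 was highest in progesterone library 2, at 0.993 CPM. Klf9 had 39.9 and 32.6 CPM in progesterone, 72.0 and 49.1 CPM in vehicle, and 71.5 and 73.2 CPM in transgenic libraries, a log2 fold change of -1.0 for progesterone against transgenic tumours (adjusted p = 0.914 by edgeR). Its progesterone libraries lay below the other 4. DESeq2 called 1 of the 5 genes of this list for progesterone against transgenic tumours, against 0.344% of the genes it tested, and 0 in the other comparisons.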

How the data were processed

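For 6 libraries the authors deposited whole-number counts of reads per gene, not normalized. Per the submitters' processing notes the build was GRCm38.p6 and the tools were HISAT2, HTSeq and DESeq. The sources used here do not state their versions or settings. Of 19288 gene IDs, 19284 had coordinates in the GENCODE annotation of GRCm38 (1-based). Genes were filtered with filterByExpr (13632 kept), scaled by TMM and fitted with edgeR 4.0.16 in R 4.3.3 (glmQLFit, glmQLFTest), with 1 mean per group over all 6 libraries and 3 residual degrees of freedom. Standard errors were derived from the F statistic. Log2 CPM used a prior count of 2. DESeq2 1.42.0, limma 3.58.1 (voom), other scaling, no filter, fits of 2 groups, a replicate block and leaving out each library were tried. The fit was tested on simulated data with known changes. The clock genes and all lists were chosen with earlier results of these data known. Named genes were the clock genes, up to 8 other clock genes by smallest p, up to 2 per further list, and the 5 most correlated with Arntl and with Dbp. Markers of the tumour line, of fibroblasts and of macrophages were named outside this rule after their values were seen. So were Npas2, Hlf, Nr1d2, Ciart, Usp2, Jun, Junb, Fkbp5, Sgk1 and Zbtb16.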

Additional observations from a re-analysis of the deposited data

How the results depend on the processing

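No clock gene was called under any of the alternatives run. Over all genes, DESeq2 called 73, 47 and 62 for progesterone against vehicle, progesterone against transgenic and vehicle against transgenic tumours, and edgeR with no filter on low counts called 92, 28 and 12, against 0 in each with the filter. Of 324 log2 fold changes recomputed for the clock genes, 294 kept their direction and 30 reversed, 26 of them when 1 library was left out, and 10 of 27 results never reversed. Cry1 reversed to 0.03 for progesterone against transgenic and 0.02 for vehicle against transgenic tumours, both with limma-voom and with the replicate block. The cause was not tested.

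Without 1 library at a time, the following ranges crossed 0. For progesterone against vehicle tumours they were -0.27 to 0.06 for Clock, -1.38 to 0.31 for Per2, -0.02 to 0.03 for Cry1, -0.42 to 0.04 for Cry2 and -0.06 to 0.28 for Tef. For progesterone against transgenic tumours they were -0.26 to 1.12 for Per1, -1.15 to 0.55 for Per2, -0.30 to 0.37 for Cry1, -0.14 to 0.25 for Cry2, -0.61 to 0.10 for Nr1d1 and -0.03 to 0.32 for Tef. For vehicle against transgenic tumours they were -0.34 to 0.01 for Clock, -0.84 to 0.44 for Per1, -0.18 to 0.58 for Per2, -0.30 to 0.37 for Cry1, -0.24 to 0.47 for Nr1d1 and -0.10 to 0.17 for Tef. A group left with 1 library is assumed to vary like the others.

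With the replicate number as a block, 0 genes were called in each comparison. Same-numbered libraries did not deviate together, with correlations of -0.125 (progesterone with vehicle), -0.174 (progesterone with transgenic) and 0.08 (vehicle with transgenic), so the numbers were not taken as pairs. The ratio of Per3 to Arntl was not run. With 2 libraries a group, intervals of Per1 and Per2 span changes of more than 1 on the log2 scale.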
